A study of Mus musculus with 20 samples.

Results

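The interleukin-1 (IL-1) family, its receptors and its processing machinery were followed in mouse lung through 9 genes: the cytokines Il1a, Il1b, Il18 and Il33, the receptor antagonist Il1rn, the receptor chains Il1r1, Il1r2 and Il1rap, and the caspase gene Casp1. They were the genes of a list of 10 names that had a row among the 547 endogenous probes of the NanoString mouse Immunology panel. The list was chosen with earlier results of these data known. The tenth gene of that list, the inflammasome sensor Nlrp3, was not analysed here. RNA came from the left lungs of 20 male wild-type C57BL/6J mice, obtained at 5 to 8 weeks of age and fed for 4 weeks either a diet rich in DHA (docosahexaenoic acid, an omega-3 fat) or a control diet without DHA. Each mouse then received 50 µL intranasally of 12.5% HDE, an extract of dust from swine barns, or of sterile saline (PBS), and lungs were taken 5 h later. There were 7 DHA-diet-fed and 6 control-diet-fed mice given HDE, and 3 DHA-diet-fed and 4 control-diet-fed mice given saline. All groups shared the strain, the sex and the same purified base diet, in which the soybean oil had been replaced by a DHA-bearing oil with high-oleic safflower oil (DHA diet) or by high-oleic safflower oil (control diet). The comparisons asked how HDE changed these transcripts and whether the DHA diet altered their levels.

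IL-1α and IL-1β are danger cytokines that act on the same receptor, a pair of the signalling chain IL1R1 and its accessory protein IL1RAP, which recruits MyD88 and turns on NF-κB. The cell limits this signal with a receptor antagonist (Il1rn) and with a decoy receptor (Il1r2) that binds ligand without signalling. IL-1β and IL-18 are made as inactive precursors that caspase-1 cuts inside the inflammasome, so transcript level and active cytokine are different quantities, and IL-33 is a nuclear cytokine that lung epithelial and stromal cells hold ready and release on damage.

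The total raw count of the endogenous probes was between 123536 and 684074 in each mouse. Counts below are scaled counts, in which each lane was divided by a factor from its housekeeping transcripts Oaz1, Ppia, Rpl19 and Eef1g. All 9 genes had a mean scaled count of at least 82 and were tested by edgeR's quasi-likelihood test, with p-values adjusted over all 358 genes tested. Il1a and Il1r2 reached this minimum only through the HDE mice, since their saline means were 57.4 and 23.8 scaled counts. The mice lay on 2 cartridges of 10 mice each, each of which held all 4 groups. The titles of the cartridges carry different dates, so that cartridge and run cannot be told apart. The mice came from several experimental sets whose mice the labels do not identify. Mice are named by group and replicate, such as control-HDE 6 for replicate 6 of the control-diet-fed mice given HDE, and a pair of these lungs stood apart. Control-HDE 6 had the lowest value among the 13 HDE mice for 8 of the 9 genes, with a summed neutrophil marker level of 790 scaled counts against 5214 to 60172 in DHA-diet-fed mice given HDE. Control-HDE 3 carried thymus and T-cell transcripts, with a summed level of 18564 against 349 to 809 in DHA-diet-fed mice given HDE. No epithelial or endothelial marker had a median raw count under background (mean plus 2 SD of the negative control probes) in any group. Counts of calls, and the results whose call, sign or size changed most without these 2 mice, are given in both ways. Control-HDE 6 was set apart partly by its low values for these same genes. Leaving it out therefore raises HDE over saline for those 8 genes by construction, and such fits add no independent evidence.

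After HDE, 6 of the 9 genes were higher than after saline at an adjusted p under 0.05, and none was lower, while 42.5% of all tested genes were called higher and 5.03% lower. The 6 were Il1b, Il1a, Il1r2, Il1rn, Il33 and Il1rap. The median log2 fold change of the 9 genes was 0.94, beside 0.47 over all tested genes. The split depended on the scaling: with TMM, which moved the median of all tested genes to -0.03, 4 were higher (Il1b, Il1a, Il1r2 and Il1rn) and 1 was lower (Il18). TMM called 200 of all tested genes in either direction, against 170 with the housekeeping scaling. Without control-HDE 3 and 6, 7 were higher, Il1r1 being the added gene, beside 49% of all tested genes higher. In whole lung, more cells of a type and more RNA per cell cannot be told apart.

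**Figure D1:**
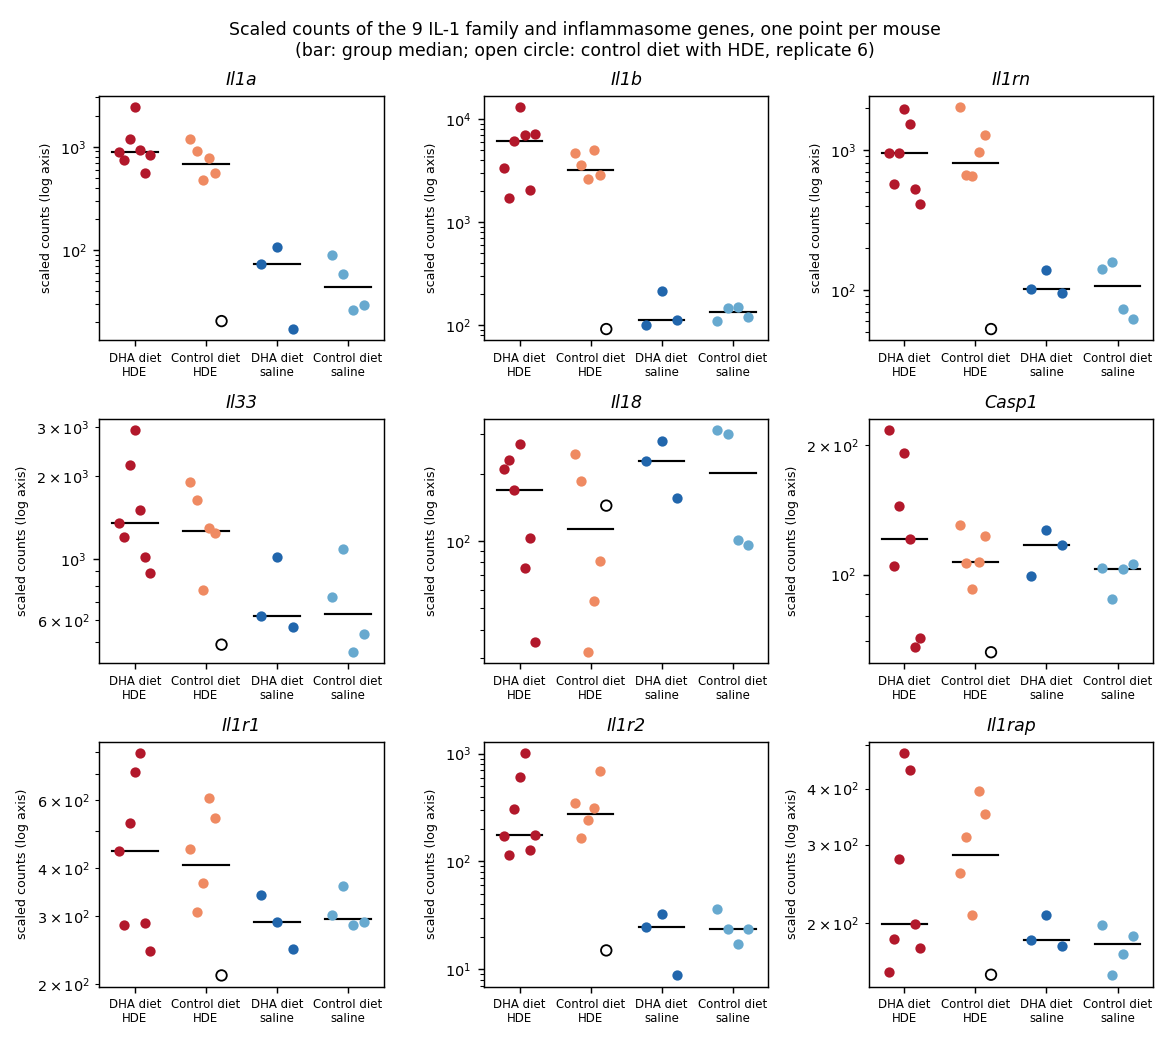
Scaled counts (log axis) of the 9 genes in each mouse, by group, with the group median as a bar and control-HDE 6 as an open circle. For Il1a, Il1b, Il1rn and Il1r2 the other 12 HDE mice lie above all 7 saline mice, while the groups overlap for the other 5 genes. Of all tested genes 20.7% showed that separation with control-HDE 6 set aside, and 0% with it.

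Il1a and Il1b, which encode the 2 agonists of the IL-1 receptor, are neighbours on mouse chromosome 2 (GRCm38.p6, both on the minus strand, with starts 61167 bases apart), and their upstream sequences are shown because these were the 2 cytokine genes with the largest HDE responses of the family. The 250 bases before an annotated start of each gene, from RefSeq, are written 5′ to 3′ on the coding strand. Capitals mark TATAAA in both and an AP-1 motif (TGANTCA) in Il1a. The Il1a window is chr2:129309973-129310222 and the Il1b window is chr2:129371140-129371389. The annotated genes reach to 129310186 (Il1a) and 129371164 (Il1b), so part of each window lies within its gene.
Il1a: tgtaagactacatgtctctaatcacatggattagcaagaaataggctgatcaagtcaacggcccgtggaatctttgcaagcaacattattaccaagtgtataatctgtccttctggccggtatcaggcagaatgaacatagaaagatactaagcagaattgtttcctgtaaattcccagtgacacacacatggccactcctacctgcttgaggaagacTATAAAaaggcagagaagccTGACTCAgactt
Il1b: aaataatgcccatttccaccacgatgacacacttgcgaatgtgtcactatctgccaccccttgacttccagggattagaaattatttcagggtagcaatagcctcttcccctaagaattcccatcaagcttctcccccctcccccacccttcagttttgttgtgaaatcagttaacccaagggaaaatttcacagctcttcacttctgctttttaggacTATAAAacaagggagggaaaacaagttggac
TATAAA began at -32 in Il1a and at -31 in Il1b, and the AP-1 motif at -12 in Il1a. Both strands were searched, and among 32851 RefSeq promoter windows of this length 12.4% held TATAAA, 6.75% held the AP-1 motif and 7.25% held the NF-κB consensus, which was in neither of these windows. The motifs do not overlap each other, and a match describes letters only. Il1rn also lies on chromosome 2, Il1r1 and Il1r2 lie close together on chromosome 1, Il18 and Casp1 on chromosome 9, Il1rap on chromosome 16 and Il33 on chromosome 19.

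Il1b was the most strongly changed gene of the 9. In DHA-diet-fed mice given HDE it ranged from 1714 to 13217 scaled counts with a median of 6143, and in control-diet-fed mice given HDE it ranged from 91.6 to 5033 with a median of 3235. After saline it was 99.3, 216 and 113 in DHA-diet-fed mice and 110, 148, 148 and 121 in control-diet-fed mice. The 12 HDE mice other than control-HDE 6 were all above the highest saline mouse, and control-HDE 6 was below the lowest. The log2 fold change, HDE over saline, was 4.92 (SE 0.606), a 30.3-fold difference (edgeR adjusted p = 9.1e-06). It was 5.36 on the DHA diet (SE 0.938, edgeR adjusted p = 0.00154) and 4.58 on the control diet (SE 0.792, edgeR adjusted p = 0.000902), and within cartridges it was 5.16 on cartridge 1 and 4.71 on cartridge 2.

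Il1a, whose precursor is already active and acts as an alarm signal of damaged cells, followed the same pattern at lower counts. It ranged from 560 to 2442 scaled counts (median 888) in DHA-diet-fed mice given HDE and from 20.4 to 1181 (median 673) in control-diet-fed mice given HDE. Saline mice had 73.6, 107 and 17.1 on the DHA diet and 90.2, 59.0, 25.9 and 29.3 on the control diet. Again 12 of 13 HDE mice were above every saline mouse, a separation that 20.7% of all tested genes showed once control-HDE 6 was set aside and that 0% showed with it. It differed by a log2 fold change of 3.87 (SE 0.577, edgeR adjusted p = 2.33e-05). The saline counts were close to the lane background, the mean plus 2 SD of the negative control probes, and with that background subtracted the log2 fold change was 5.31. Within cartridges it was 3.85 on cartridge 1 and 4.51 on cartridge 2.

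Il1rn encodes the antagonist that occupies the IL-1 receptor without starting a signal, and it rose with its competitors but less. It ranged from 411 to 1965 scaled counts (median 946) in DHA-diet-fed mice given HDE and from 52.7 to 2030 (median 812) in control-diet-fed mice given HDE. The saline values were 102, 140 and 95.1 on the DHA diet and 141, 158, 73.8 and 61.7 on the control diet. All HDE mice but control-HDE 6 exceeded every saline mouse. HDE raised it by a log2 fold change of 3.13 (SE 0.494, edgeR adjusted p = 3.92e-05), an 8.75-fold difference, and it was 3.14 on the DHA diet and 3.12 on the control diet.

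Il33, an alarmin of the lung barrier that signals through the ST2 receptor (gene Il1rl1) to innate lymphoid cells and mast cells, was already abundant after saline and changed by a smaller factor. It ranged from 887 to 2937 scaled counts (median 1347) in DHA-diet-fed mice given HDE and from 489 to 1899 (median 1266) in control-diet-fed mice given HDE. After saline it was 619, 1014 and 566 on the DHA diet and 726, 1082, 458 and 533 on the control diet. The groups overlapped, with 9 of 13 HDE mice above every saline mouse. The log2 fold change was 0.94 (SE 0.288, edgeR adjusted p = 0.00964), but under TMM scaling it was 0.40 with an adjusted p of 0.0644. On single diets it did not pass the threshold, at 1.11 on the DHA diet (edgeR adjusted p = 0.0549) and 0.80 on the control diet (edgeR adjusted p = 0.128). Within cartridges, over both diets, it was 1.12 on cartridge 1 (edgeR adjusted p = 0.00859) and 0.96 on cartridge 2 (edgeR adjusted p = 0.102). With both outlying mice left out the single-diet values were 1.11 and 1.12, with adjusted p-values of 0.0216 and 0.0194, and with cartridge as a block 1.15 and 0.93, with adjusted p-values of 0.0134 and 0.0296.

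Il18, whose product drives interferon-gamma release by lymphocytes once caspase-1 has cut it, was the one cytokine of the 4 that had a negative fold change. It ranged from 35.1 to 271 scaled counts (median 168) in DHA-diet-fed mice given HDE and from 31.7 to 245 (median 113) in control-diet-fed mice given HDE. After saline it was 228, 281 and 156 on the DHA diet and 314, 302, 101 and 95.5 on the control diet. No HDE mouse exceeded the highest saline mouse, and 5 of 13 were below the lowest. The log2 fold change of -0.62 (SE 0.391) did not pass the test (edgeR adjusted p = 0.204), but passed under TMM scaling, at -1.004 with an adjusted p of 0.033.

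The spread of Il18 went with the cartridge. On cartridge 1 the 6 HDE mice had 168 to 271 scaled counts and the 4 saline mice 228 to 314. On cartridge 2 the 7 HDE mice had 31.7 to 144 and the 3 saline mice 95.5 to 156. When cartridge was added to the 4-group fit, Il18 was lower on cartridge 2 by a log2 difference of -1.44 (SE 0.248, edgeR adjusted p = 0.00224), a direction called for 10.3% of all tested genes. Il33 was also lower there (-0.79, edgeR adjusted p = 0.0216), while the log2 differences of the other 7 genes lay between -1.21 (Il1a, edgeR adjusted p = 0.0665) and 0.03 (Il1r2). With cartridge as a block the HDE log2 fold change of Il18 was -0.50 (edgeR adjusted p = 0.0905), and within cartridges it was -0.34 on cartridge 1 and -0.64 on cartridge 2.

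**Figure D2:**
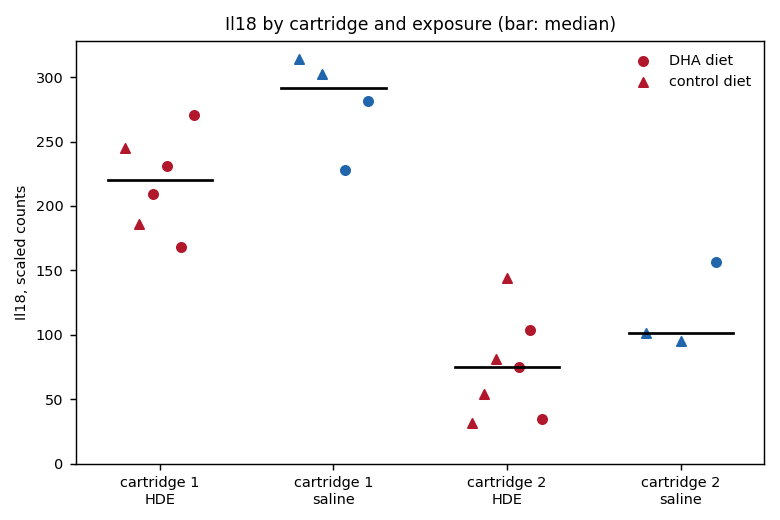
Il18 scaled counts (linear axis) by cartridge and exposure, 1 point per mouse, circles for the DHA diet and triangles for the control diet, bars at medians. Medians were 220 in HDE mice and 292 in saline mice on cartridge 1, and 75.4 in HDE mice and 101 in saline mice on cartridge 2.

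Among the receptor chains, the decoy rose far more after HDE than the signalling receptor. Il1r2 ranged from 115 to 1012 scaled counts (median 176) in DHA-diet-fed mice given HDE and from 14.9 to 697 (median 277) in control-diet-fed mice given HDE. After saline it was 24.5, 32.9 and 8.75 on the DHA diet and 36.1, 23.8, 17.3 and 23.4 on the control diet, and in 5 of these 7 lanes the raw count was below the lane background. All HDE mice but control-HDE 6 exceeded every saline mouse. HDE raised it by a log2 fold change of 3.80 (SE 0.62, edgeR adjusted p = 6.15e-05), and 6.58 with background subtracted and a floor of 1, so that its size rests on how low saline counts are treated.

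Il1r1, the signalling receptor, was measured well above background in all mice. It ranged from 244 to 795 scaled counts (median 443) in DHA-diet-fed mice given HDE and from 211 to 606 (median 407) in control-diet-fed mice given HDE, and saline mice had 246 to 340 on the DHA diet and 284 to 360 on the control diet. Of the 13 HDE mice, 8 were above every saline mouse. The log2 fold change of 0.54 (SE 0.249) did not pass the test (edgeR adjusted p = 0.0791), passed without control-HDE 6 (0.62, adjusted p = 0.029) or without DHA-HDE 7 (0.59, adjusted p = 0.0477), and was -0.022 under TMM scaling.

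Il1rap, the accessory chain shared by the receptors for IL-1 and IL-33, ranged from 156 to 480 scaled counts (median 199) in DHA-diet-fed mice given HDE and from 154 to 395 (median 285) in control-diet-fed mice given HDE. Saline mice had 178 to 209 on the DHA diet and 153 to 198 on the control diet. Its log2 fold change of 0.59 (SE 0.241) was just past the threshold (edgeR adjusted p = 0.048), and 7 of 13 HDE mice were above every saline mouse. The call was kept in only 6 of the 20 fits that left out 1 mouse (without DHA-HDE 1, 2, 6 or 7, or control-HDE 3 or 6), and under TMM scaling the value was 0.017.

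Casp1, which encodes the protease that cuts the precursors of IL-1β and IL-18, did not pass the test. It ranged from 67.9 to 217 scaled counts (median 121) in DHA-diet-fed mice given HDE and from 66.0 to 131 (median 107) in control-diet-fed mice given HDE. The saline values were 99.3 to 127 on the DHA diet and 87.9 to 106 on the control diet. HDE mice thus lay both above and below the saline range, 4 above and 3 below, with a log2 fold change of 0.12 (SE 0.216, 95% confidence interval -0.33 to 0.56, edgeR adjusted p = 0.68) that was -0.42 under TMM scaling.

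**Figure D3:**
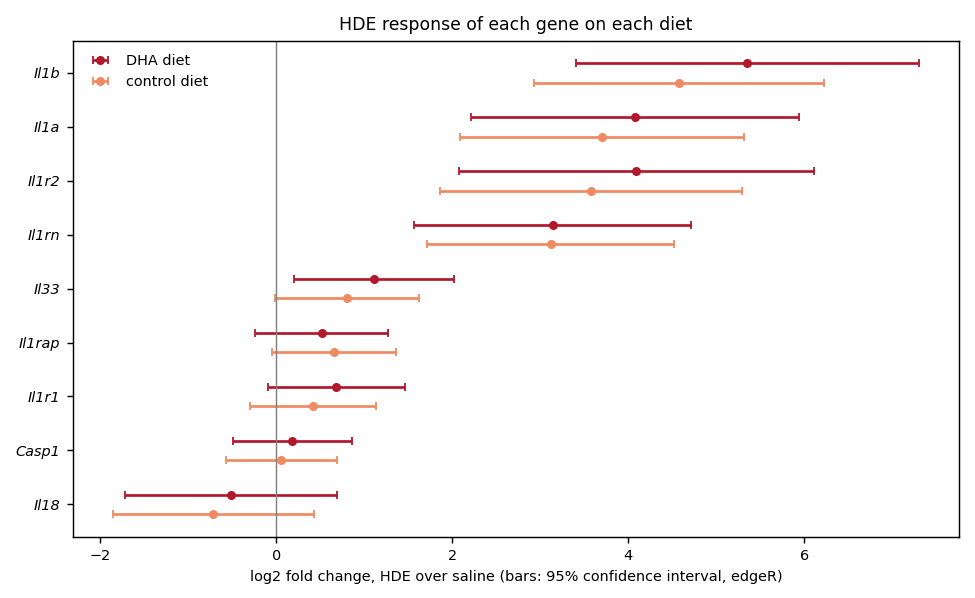
Log2 fold change of each gene, HDE over saline, on the DHA diet (dark red, upper of each pair) and on the control diet (orange), with 95% confidence intervals from edgeR. Il1b, Il1a, Il1r2 and Il1rn lie above 0 on both diets, from 3.12 to 5.36, and the intervals of the diets overlap for all 9 genes.

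The same 4 genes, Il1a, Il1b, Il1rn and Il1r2, were called higher after HDE on each diet taken alone. Without control-HDE 3 and 6 there were 5 on the DHA diet, with Il33 added, and 6 on the control diet, with Il33 (1.12) and Il1rap (0.89, edgeR adjusted p = 0.0385) added. With all mice kept, the background on the DHA diet was 30.4% of all tested genes higher and 1.68% lower. On the control diet it was 25.1% higher and 0.838% lower. With control-HDE 3 and 6 left out, the shares of all tested genes called higher were 37.7% on the DHA diet and 38.3% on the control diet. The HDE response did not differ detectably between the diets: in the test of the difference itself none of the 9 genes passed, the differences in log2 fold change (DHA diet minus control diet) ranged from -0.14 for Il1rap to 0.78 for Il1b, and their 95% intervals reached from -1.80 to 2.78. Of all 358 genes 0% passed that test, and 2.51% had an unadjusted p of at most 0.05.

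Ratios within a mouse do not depend on the lane scaling except through the added pseudocount of 1 and were compared by two-sided exact permutation tests, with p-values adjusted over 8 tests (4 ratios for HDE and for diet). The ligand moved ahead of its antagonist. The log2 ratio of Il1b to Il1rn averaged 2.08 ± 0.861 in HDE mice (SD, n = 13) and 0.33 ± 0.537 in saline mice (SD, n = 7), a difference within diets of 1.70 (exact permutation p = 0.000159, adjusted p = 0.000635). For Il1a to Il1rn the difference was 0.89 (exact permutation p = 0.00687, adjusted p = 0.0183), with background subtracted 1.69 (adjusted p = 0.00116), and without DHA-saline 3 0.57 with an adjusted p of 0.0705. The ratio of Il1b to Il1a differed by 0.81 (exact permutation p = 0.0231, adjusted p = 0.0462), but this was lost in 14 of 20 runs without 1 mouse, and with background subtracted the difference was -0.037.

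The balance of signalling receptor to decoy was lower after HDE. The log2 ratio of Il1r1 to Il1r2 averaged 0.86 ± 1.03 in HDE mice (SD, n = 13) and 3.71 ± 0.555 in saline mice (SD, n = 7). The difference was -2.83 (exact permutation p = 0.000119, adjusted p = 0.000635). Since Il1r2 was below the lane background in 5 of 7 saline mice, the size is not fixed, and with background subtracted it was -6.14 (adjusted p = 0.000635). Control-HDE 6 was the one HDE mouse within the saline range, at 3.73.

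**Figure D4:**
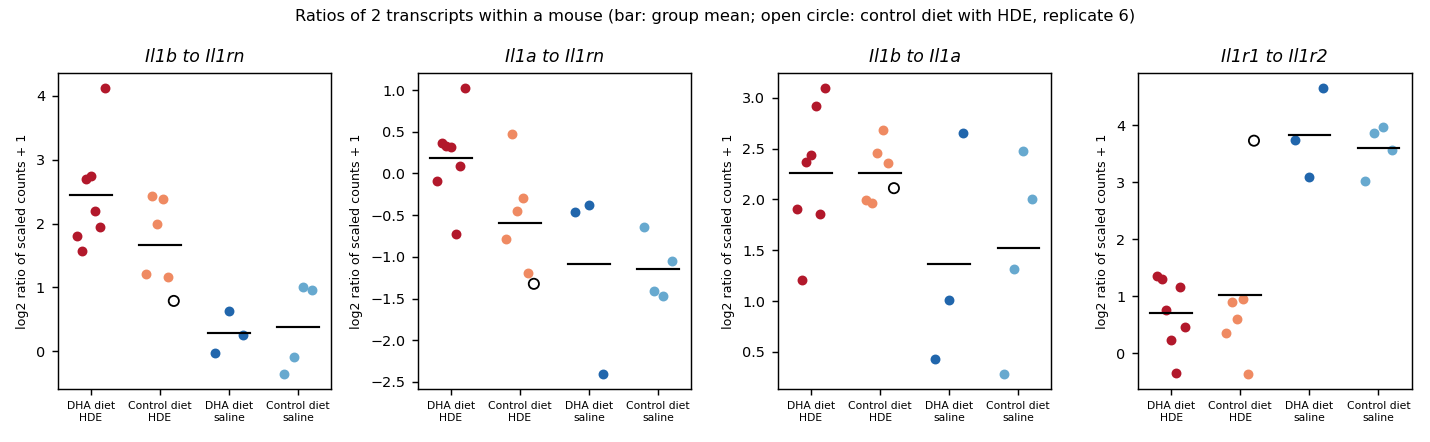
Log2 ratios of the scaled counts (plus 1) of 2 transcripts in each mouse, by group, with bars at group means and control-HDE 6 as an open circle. The Il1b to Il1rn ratio averages 2.44 and 1.66 in the HDE groups and 0.28 and 0.37 in the saline groups, and the Il1r1 to Il1r2 ratio averages 0.71 and 1.03 in the HDE groups and 3.84 and 3.61 in the saline groups.

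Among HDE-challenged mice, the DHA diet gave no called difference in any of the 9 genes, and 0% of the 357 genes tested in these 13 mice were called by edgeR. At an unadjusted p of at most 0.05 there were 17 such genes (4.76%), none of them in the family, and DESeq2 called none of the family either. Of the 9 log2 fold changes, DHA over control diet, 8 were above 0, with a median of 0.32 beside 0.14 over all tested genes. Without control-HDE 3 and 6, 5 of 9 were above 0, with a median of 0.059 beside 0.00089 over all tested genes. The largest were Il1b at 0.88 (95% interval -0.46 to 2.23, edgeR adjusted p = 0.971) and Il1a at 0.72 (95% interval -0.50 to 1.94, edgeR adjusted p = 0.971). For Il1rn the value was 0.07 (95% interval -1.12 to 1.26), and for Il1rap -0.04 (95% interval -0.75 to 0.67), both of which changed sign when single mice were left out. The size of the cytokine differences rested on single mice. Without control-HDE 3 and 6, Il1b was 0.52, Il1a 0.33 and Il33 0.059, and without DHA-HDE 4 Il1b was 0.54 and Il1a 0.39, while Il1a was 0.46 without control-HDE 6 alone. With limma on the deposited normalized values Il1b was 1.24 and Il1a 1.24. The intervals of the fit with all 13 mice are wide enough to hold differences of more than 1 log2 unit for the cytokines.

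Ratios were also compared between the diets among HDE-challenged mice. The log2 ratio of Il1a to Il1rn averaged 0.19 ± 0.532 in DHA-diet-fed mice given HDE (SD, n = 7) and -0.60 ± 0.658 in control-diet-fed mice given HDE (SD, n = 6), a difference of 0.78 (exact permutation p = 0.0396, adjusted p = 0.0634) that did not pass after adjustment. It passed without control-HDE 2 (1.00, adjusted p = 0.0202) or DHA-HDE 5 (0.93, adjusted p = 0.0346), and was 0.64 (adjusted p = 0.204) without control-HDE 3 and 6. For Il1b to Il1rn the difference was 0.78 (exact permutation p = 0.102, adjusted p = 0.136), for Il1r1 to Il1r2 it was -0.32 and for Il1b to Il1a it was below 0.01 in size. After saline no gene of the 9 differed by diet, with log2 fold changes from -0.25 to 0.35 and intervals reaching from -2.13 to 2.02, and 0% of 358 genes passed. None of the 9 had an unadjusted p of at most 0.05 in this comparison or in the interaction, and DESeq2 called none of them.

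**Figure D5:**
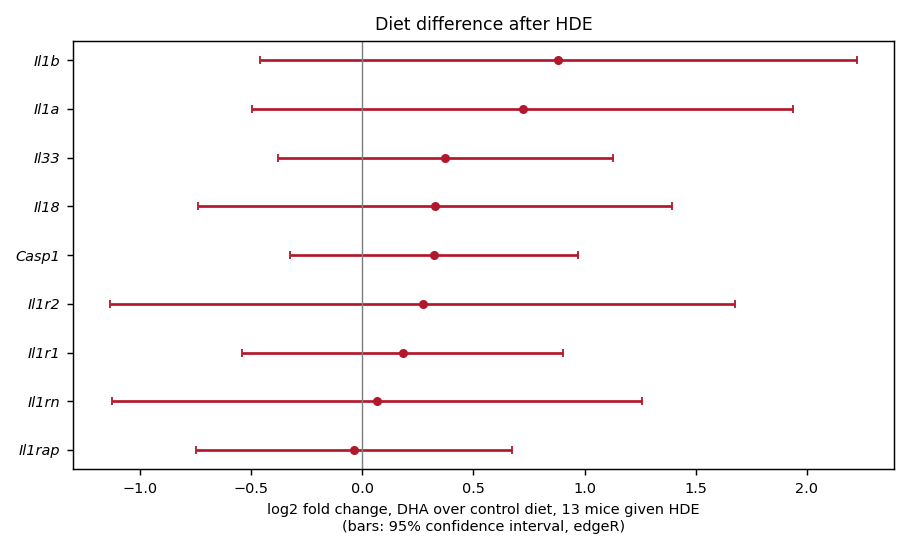
Log2 fold change of each gene, DHA over control diet, in the 13 mice given HDE, with 95% confidence intervals from edgeR. All 9 intervals include 0, and the point estimates run from 0.88 for Il1b to -0.04 for Il1rap.

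The wider IL-1 pathway was described by a list of 33 receptors, adaptors, inflammasome and feedback genes, of which 21 were on the panel and 20 were tested. HDE raised 8 of them and lowered 0, and 12 did not pass, with a median log2 fold change of 0.28. Over all tested genes 42.5% were called higher and the median was 0.47. The 8 included members of the proximal signalling complex, the adaptor Myd88 (1.43) and the kinase family members Irak2 (1.48) and Irak3 (1.47), Irak3 being a brake on that complex. Tirap (0.60), another adaptor gene of the list, and Il18rap (1.83), the accessory chain of the IL-18 receptor, were among the 8. The 8 also included the NF-κB feedback genes Tnfaip3 (3.14), which encodes the ubiquitin-editing inhibitor A20, Nfkbia (2.49), which encodes IκBα, and Nfkbiz (1.35).

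Among the other receptors of the list, Il18r1 (0.04), Il1rl2 (-0.28) and the inhibitory receptor Sigirr (-0.15) did not pass, Il1rl1 was below the count minimum, and the same test was not passed by Irak1 (-0.12), Irak4 (0.16) and Traf6 (0.47). Without control-HDE 3 and 6 the count was 9 of 20 higher and 0 lower, Traf6 being added, beside 49% of all tested genes higher. The median of the list was then 0.31, beside 0.51 over all tested genes. Under TMM scaling the count was 7 higher and 6 lower, with Tirap at 0.04 and a median of -0.25. TMM called 200 of all tested genes in either direction, with a median of -0.03. In DHA-diet-fed over control-diet-fed mice given HDE, 19 of the list were tested and 0 passed.

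Neutrophil markers moved with these genes. All 4 tested markers of 5 (Csf3r, Cxcr2, S100a8 and S100a9) were higher after HDE, with a median log2 fold change of 2.59, and the summed level of the 5 ranged from 5214 to 60172 in DHA-diet-fed mice given HDE, from 790 to 32895 in control-diet-fed mice given HDE, from 1312 to 1877 in DHA-diet-fed mice given saline and from 1724 to 4756 in control-diet-fed mice given saline. Of 5 macrophage and monocyte markers 1 was higher (Marco, 1.497), and of 3 epithelial markers 1 was higher (Pigr, 1.72), while 2 of 4 B cell markers were lower (Ms4a1 at -0.50 and Cd79b at -0.50). None of 3 endothelial and none of 7 tested thymus and T-cell markers passed. The part of these cell types in the changes of the IL-1 family was not tested. These counts stand beside 42.5% of all tested genes higher and 5.03% lower.

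The genes whose levels ran most like each member were found by Pearson's r of log2(scaled count + 1) over the 20 mice, among 349 other tested genes, as a description without a test, since all share the HDE contrast and the lane scaling. Il1a ran closest with the chemokine gene Ccl3 (r = 0.988), then Ccl20 and Tnf, and Il1b with Cd83 (r = 0.988), Ptafr and Nfkbia. For Il1rn the nearest were the myeloid receptor genes Trem1 (r = 0.983) and Clec4e with Tnfaip3, and for Il1r2 they were Ccl19 (r = 0.972), Tnfaip3 and Cd80. Over the 13 HDE mice alone the first of these were 0.987 for Il1a with Ccl3, 0.966 for Il1b with Cd83, 0.967 for Il1rn with Trem1 and 0.949 for Il1r2 with Ccl19. These 13 mice include control-HDE 6, the lowest of them for Il1a, Il1b, Il1rn and Il1r2, with values near those after saline. Values of r without that mouse were not computed, so the 13-mouse values are not free of the HDE contrast. Il33 ran with Icam1 (r = 0.93), Myd88 and Cebpb, and Il1r1 with Litaf, Fas and Mapkapk2. Il1rap ran with Icosl, Itga5 and Cd82. Il18 and Casp1 had other neighbours, Cd9 (r = 0.85), Ctss and Cd55 for Il18 and Ly86 (r = 0.837), H2-Aa and Cish for Casp1.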

How the data were processed

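Left lung RNA of these 20 mice was counted with the mouse Immunology panel on an nCounter Sprint profiler. The paper reports that more left lungs were selected at random for the panel and that these 20 samples were the ones that passed normalization. Raw counts per probe and lane were deposited by the authors without background subtraction. Their normalized signal, also deposited, is the authors' raw count times 1 factor per lane and was used only as an alternative. Groups came from the sample labels, mice were separate animals, and no column was left unused (0 of other samples).

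Each lane was scaled by its Oaz1, Ppia, Rpl19 and Eef1g counts (geometric mean), which would carry any change of these 4 genes into all fold changes. Endogenous genes averaging at least 82 scaled counts in the mice of a fit were tested with edgeR 4.0.16 (R 4.3.3, quasi-likelihood test) and Benjamini-Hochberg adjustment at 0.05. HDE came from a model with diet over 20 mice, diet after HDE from the 13 HDE mice, while within-diet contrasts and the interaction used all 4 groups. SE is the absolute log2 fold change over the square root of F. Ratios were tested by exact permutation. Alternatives used limma 3.58.1, DESeq2 1.42.0, other scalings, filters and background subtraction, cartridge, and each mouse left out. Fits were tested on simulated data.

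The members and lists were chosen with earlier results of these data known, and all 9 members with a row are named whatever their values. Neighbours are the 3 genes with the highest r. Promoters matched all 10 genes of the list by symbol in RefSeq (GRCm38.p6). The number of counted molecules limits precision, and intervals cover the spread between mice. Of the marker lists, 1 gene is not reported here and was left out of the sums and counts of its list.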

Additional observations from a re-analysis of the deposited data

Results flagged for a closer look

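Among 27 sets of values (9 genes in the 3 groups of 4 or more mice), 2 held a mouse far from the rest of its group by Dixon's test, which chance alone gives in about 5% of sets. Il1a in replicate 4 of the DHA diet with HDE was 2442 scaled counts, against 560 to 1191 in the other 6 mice of that group. That mouse also had the highest value of all HDE mice for 5 of the 9 genes and the lowest lane factor of the 20 mice, 0.277, so that its raw counts were multiplied most. Casp1 in replicate 2 of the control diet with saline was 87.9 scaled counts, against 103 to 106 in the other 3 mice of that group. Replicate 6 of the control diet with HDE, though at 20.4 for Il1a and 91.6 for Il1b, was not far enough from its group by this test. That mouse had the highest lane factor of the 20 mice, 2.54, so that its raw counts were divided most. Its raw counts of Il1a, Il1b, Il1rn and Il1r2 were the lowest of the HDE mice. Those of Il33 (1243), Il1r1 (536), Il1rap (391) and Casp1 (168) were not.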

How the results depend on the processing

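Il1a, Il1b, Il1rn and Il1r2 were higher after HDE over the 20 mice under each alternative that tested them, except that Il1rn (3.32, adjusted p = 0.0505) and Il1r2 (4.46, adjusted p = 0.0541) missed the threshold on cartridge 2 alone, where 3 saline mice remain. The number of the 9 genes called was 5 to 7 with 1 mouse left out, where 140 to 186 of all tested genes were called in either direction. It was 3 with at least 82 scaled counts required in every mouse, where 99 of all tested genes were called. Under that filter 4 of the 9 were tested (Il1b, Il33, Il1r1 and Il1rap). On cartridge 2 alone the number was 2, with 26 of all tested genes called. On the DHA diet the count was 4 to 5 with 1 mouse left out and 2 under the stricter filter, beside 50 to 135 and 75 of all tested genes. On the control diet it was 4 to 5 and 1 in the same order, beside 34 to 148 and 40. Cartridge 2 held 1 DHA-diet-fed and 2 control-diet-fed saline mice, too few for counts of calls on single diets. The lone mouse was taken to vary like the other groups, and there Il1a, Il1b and Il1r2 were 5.50, 5.58 and 5.64 on the DHA diet. On the control diet they were 4.06, 4.30 and 3.95. For the diet after HDE, the diet after saline and the interaction the count of the 9 genes called was 0 to 0 with 1 mouse left out.

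Signs turned as follows, and the cause was not tested. For HDE over saline, Il1r1 was -0.022 with TMM and -0.0042 with DESeq2's size factors, and Casp1 was -0.42 and -0.41 with these, -0.0081 with all housekeeping probes and -0.23 on cartridge 2. For DHA over control diet after HDE, Il1rn was -0.11 with TMM, -0.049 with all housekeeping probes, -0.068 with DESeq2's size factors, -0.036 with the cartridge block, -0.29 on cartridge 1 and -0.33 without both outlying mice. In that comparison Il1r1 was -0.053 with TMM, -0.011 with DESeq2's size factors and -0.026 without both outlying mice, Il1r2 was -0.095 without both, Il18 was -0.062 with the cartridge block and -0.13 on cartridge 2, and Casp1 was -0.16 on cartridge 2. With 1 mouse left out, the ranges that crossed 0 were -0.19 to 0.45 for Il1rn, -0.26 to 0.73 for Il1r2 and -0.23 to 0.087 for Il1rap.

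Of the ratios, Il1b to Il1a (HDE minus saline) was -0.037 with background subtracted and 0.81 (adjusted p = 0.0857) without both outlying mice. For the diet after HDE it was 0.23 with cartridge means removed and 0.0068 without both, and Il1r1 to Il1r2 was 0.25 without both. With 1 mouse left out the HDE differences ran from 1.56 to 1.84 for Il1b to Il1rn, 0.57 to 1.00 for Il1a to Il1rn, 0.62 to 1.05 for Il1b to Il1a and -3.12 to -2.63 for Il1r1 to Il1r2. The diet differences ran from 0.50 to 0.93, 0.64 to 1.00, -0.15 to 0.17 and -0.60 to 0.22 in that order of ratios. No paired analysis was possible because the labels give no replicate numbers that tie mice of different groups. The counts of the pathway list without both outlying mice, with TMM and with the cartridge block (8 higher and 0 lower) were added after seeing the data. With the cartridge block 185 of all tested genes were called in either direction.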
